A study of Homo sapiens with 12 samples.

Results

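The ZNF genes are a large named set of human zinc finger genes, taken here by name alone: every gene whose only symbol in the platform annotation is ZNF followed by digits. The set held 211 of the 11940 genes on the arrays, each read through the probe set whose log2 signal, averaged over the 12 arrays, was highest. No signal value entered the naming rule, but the family was chosen by what had been seen: it was picked out because members differed between JAK2 knockdown and control in these same arrays, so the members' values and calls in that comparison, and for each hairpin against the controls, are a description. The tests that this choice did not use are those of the JAK2 hairpins against each other and of the controls against each other. The cells were HEL, a human erythroleukaemia line with the activating JAK2V617F mutation on all copies of JAK2. Cells in every group received a lentivirus from a puromycin-selectable vector. Jak2-10 and Jak2-9 carried independent short hairpin RNAs against JAK2; the controls were Luc, a hairpin against luciferase, and GFP, which the labels call a vector control in one place and a hairpin in another. There were 3 arrays in each of the 4 groups. The replicates are numbered but are not said to be separate cultures, so every error and p-value here measures how these arrays spread, and that spread may be technical.

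Zinc fingers are small folds held by a zinc ion, and strings of them let a protein read a stretch of DNA. A large share of human ZNF genes encode KRAB zinc finger proteins, which bring the corepressor TRIM28 and histone methylation to their target sites, many of them in retrotransposons. These genes lie in tandem clusters, chiefly on chromosome 19, and copies within a cluster resemble each other, so an array probe can match more than one of them. JAK2 is the kinase that carries erythropoietin and thrombopoietin receptor signals to STAT proteins, and HEL cells grow with it constantly active.

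Promoter sequence from RefSeq, from 250 bases before to 50 bases after the annotated start, was at hand for 182 of the 211 members. It is shown for 4 chromosome 19 genes that were among the lowest in knockdown cells (ZNF160, ZNF611, ZNF83 and ZNF331) and for ZNF236, the gene with the highest difference. Capitals mark a match to CCGGAAG, the core bound by ETS factors, or to TTCNNNGAA, the core bound by STAT factors, on either strand. Coordinates are GRCh38.p14.
ZNF160 promoter, chr19:53103373-53103672, minus strand: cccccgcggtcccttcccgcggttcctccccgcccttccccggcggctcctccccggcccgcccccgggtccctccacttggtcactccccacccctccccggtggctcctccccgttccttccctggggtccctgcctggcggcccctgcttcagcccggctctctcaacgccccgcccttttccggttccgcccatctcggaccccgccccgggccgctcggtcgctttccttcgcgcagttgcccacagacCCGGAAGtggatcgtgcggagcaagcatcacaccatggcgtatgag
ZNF611 promoter, chr19:52734995-52735294, minus strand: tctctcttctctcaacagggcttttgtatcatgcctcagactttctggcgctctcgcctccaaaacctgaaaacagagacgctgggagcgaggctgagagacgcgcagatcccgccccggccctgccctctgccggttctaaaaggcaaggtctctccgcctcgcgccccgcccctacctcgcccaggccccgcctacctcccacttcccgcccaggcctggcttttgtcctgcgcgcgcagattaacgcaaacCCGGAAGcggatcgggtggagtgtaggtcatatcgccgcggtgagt
ZNF83 promoter, chr19:52690447-52690746, minus strand: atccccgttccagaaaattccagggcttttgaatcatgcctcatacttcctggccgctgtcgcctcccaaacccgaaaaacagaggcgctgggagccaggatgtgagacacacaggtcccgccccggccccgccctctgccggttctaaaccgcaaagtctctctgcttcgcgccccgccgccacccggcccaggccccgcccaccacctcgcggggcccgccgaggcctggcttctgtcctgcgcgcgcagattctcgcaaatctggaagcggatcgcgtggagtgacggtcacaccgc
ZNF331 promoter, chr19:53520764-53521063, plus strand: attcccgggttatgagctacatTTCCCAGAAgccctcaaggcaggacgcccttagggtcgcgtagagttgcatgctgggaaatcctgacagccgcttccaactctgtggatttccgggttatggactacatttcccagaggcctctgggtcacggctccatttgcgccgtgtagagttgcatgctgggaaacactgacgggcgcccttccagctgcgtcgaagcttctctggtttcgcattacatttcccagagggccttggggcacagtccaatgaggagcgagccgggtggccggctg
ZNF236 promoter, chr18:76822307-76822606, plus strand: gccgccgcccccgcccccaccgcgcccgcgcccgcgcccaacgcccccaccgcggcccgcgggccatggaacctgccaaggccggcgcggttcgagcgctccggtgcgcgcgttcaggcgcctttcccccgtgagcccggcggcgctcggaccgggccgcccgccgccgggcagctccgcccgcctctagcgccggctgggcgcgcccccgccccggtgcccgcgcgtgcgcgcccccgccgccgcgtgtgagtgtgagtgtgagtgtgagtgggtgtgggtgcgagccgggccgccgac
ZNF611 and ZNF83 had the same base at 78.4% of 310 aligned columns, against 44.6% to 53.1% for the other pairs of these 5 promoters. The ZNF236 window held 55 CpG pairs in its 300 bases, against 17 in that of ZNF331 and 26 to 30 in the other windows.

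CCGGAAG was found in 78 of the 182 member promoters (42.9%), against 15.3% of the 9592 promoters of genes on the arrays and 10.7% of all 27305 promoters of the same length. TTCNNNGAA was found in 29 member promoters (15.9%), against 6.57% of the array genes and 7.88% of all promoters. CCAAT was in 46.2% of member promoters and 37.5% of those of array genes, and TATAAA in 2.75% and 8.59%. These are counts of letters in a window, among 12 motifs searched on both strands after the promoters had been looked through, and a match is not a binding site. Members with TTCNNNGAA had a median log2 difference between knockdown and control of -0.10, and members without it -0.04. For CCGGAAG the medians were -0.04 with it and -0.06 without it. Wider gaps lay with motifs found in few member promoters. These were GCGCATGCG (8 promoters, -0.32 with and -0.05 without), TATAAA (5, -0.25 and -0.05) and TTTGGCGC (2, -0.14 and -0.05). Of the 29 members with TTCNNNGAA 1 was among the genes called lower below, as were 10 of the 153 without it. Over all genes 1.39% were called lower. Whether any motif bears on the differences was not tested.

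JAK2 itself had log2 signals of 10.06, 10.04 and 9.78 with Jak2-10 and 9.37, 9.89 and 10.08 with Jak2-9, against 10.47, 10.63 and 10.56 with Luc and 10.47, 10.40 and 10.68 with GFP. Each of the 6 knockdown arrays was below each of the 6 controls, at 63.1% of the control level (log2 difference -0.67 ± 0.11 SE; limma, adjusted p = 0.004). Of the cell type markers measured, all 10 erythroid ones had a mean log2 signal above 7 (7.78 to 14.78), as did 3 of 6 megakaryocyte ones. None of the 4 lymphoid, 4 monocyte and granulocyte or 4 fibroblast and epithelial markers did, the highest being 5.77. Jak2-9 replicate 1 stood apart: 15 members (7.11%) lay more than 1 log2 unit from their control mean in it, against 1 to 3 members in each other knockdown array and 0 in every control array. That share was not counted over all genes. The median over all genes lay 0.10 log2 units from the control mean in Jak2-9 replicate 1, and at -0.04 to 0.04 in the other arrays. Where Jak2-9 replicate 1 is described below as the extreme array of a gene, and for the counts by hairpin, values without it are given too. The control probe set for Alu repeats read 14.15, 14.15 and 14.01 with Jak2-10 and 13.97, 13.94 and 14.13 with Jak2-9, against 14.63, 14.68 and 14.67 with Luc and 14.64, 14.52 and 14.50 with GFP. Its part in the differences below was not tested.

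Between JAK2 knockdown and control cells, 13 ZNF genes were lower and 2 were higher past an adjusted p of 0.05 in the model fitted over all genes. The lower ones ran from ZNF160, at 47.4% of its control signal, to ZNF667, at 80.3%. Most of them encode KRAB repressors or belong to the tandem clusters of such genes. How many of the 211 members do so was not counted, so nothing is read from that. The higher ones were ZNF236, at 3.87-fold, and ZNF747, at 131%. The 15 genes are 7.11% of the 211, and 1.83% of all 11940 genes passed in the same comparison. For lower alone the shares were 6.16% of the ZNF genes and 1.39% of all genes, and for higher alone 0.948% and 0.436%. As this comparison brought the family forward, nothing is read from these shares. The count of 15 was 27 when arrays were weighted by their fit, against 4.52% of all genes. With GFP as the only control it was 7, against 0.637% of all genes. In these bulk samples, fewer cells of a type and less RNA per cell cannot be told apart. Signals below are log2 RMA intensity, with replicates 1, 2 and 3 of each group in that order. Differences are knockdown minus control in log2 units ± SE, with 6 arrays on each side. The SE is that of the model, from the spread within the 4 groups. It does not cover differences between the JAK2 hairpins or between Luc and GFP.

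ZNF160 had 7.06, 6.98 and 7.19 with Jak2-10 and 7.04, 6.53 and 6.81 with Jak2-9, against 8.33, 8.10 and 8.37 with Luc and 8.15, 7.78 and 7.35 with GFP. No knockdown array reached any control array, and GFP replicate 3 was the lowest control (-1.08 ± 0.12). ZNF160 encodes a KRAB zinc finger protein of the chromosome 19 cluster. ZNF721 had 7.44, 7.57 and 7.68 with Jak2-10 and 7.32, 7.05 and 7.34 with Jak2-9, against 8.54, 8.34 and 8.50 with Luc and 8.67, 8.33 and 8.14 with GFP. The groups again did not overlap (-1.02 ± 0.09), and the signal was at 49.3% of control. ZNF721 is a KRAB gene at the end of chromosome 4, away from the chromosome 19 clusters. ZNF331 had 6.41, 6.39 and 6.08 with Jak2-10 and 5.93, 6.33 and 6.15 with Jak2-9, against 7.45, 7.18 and 7.14 with Luc and 7.41, 7.03 and 6.61 with GFP. Its knockdown arrays were all lower, at 52.7% of control (-0.92 ± 0.12). ZNF331 is an imprinted KRAB zinc finger gene. ZNF611 had 5.74, 5.62 and 5.54 with Jak2-10 and 5.05, 5.47 and 5.53 with Jak2-9, against 6.26, 6.17 and 6.60 with Luc and 6.38, 6.22 and 6.08 with GFP. The groups did not overlap and the signal was at 57.6% of control (-0.79 ± 0.10). ZNF611 is another KRAB gene of chromosome 19. Its promoter, printed above, resembles that of ZNF83, the measured member before it in gene order, though the 2 are not directly adjacent genes. ZNF83 had 6.39, 6.23 and 5.92 with Jak2-10 and 5.87, 6.02 and 5.99 with Jak2-9, against 6.76, 7.13 and 6.71 with Luc and 6.83, 6.79 and 6.45 with GFP. The knockdown arrays were all below the controls, at 61.3% (-0.71 ± 0.10).

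ZNF195 had 7.80, 7.82 and 7.37 with Jak2-10 and 6.38, 7.49 and 7.56 with Jak2-9, against 8.04, 8.14 and 8.40 with Luc and 8.20, 8.29 and 7.99 with GFP. Jak2-9 replicate 1 was the lowest array by more than 0.9 log2 units, yet the other knockdown arrays also lay below every control (-0.77 ± 0.17, 58.6% of control; -0.58 without that array). ZNF195 is a KRAB gene on chromosome 11. ZNF292 had 9.43, 9.62 and 9.30 with Jak2-10 and 8.61, 9.06 and 9.30 with Jak2-9, against 9.94, 9.97 and 9.95 with Luc and 10.08, 9.69 and 9.71 with GFP. Its groups did not overlap, and Jak2-9 replicate 1 was again the lowest (-0.67 ± 0.11, 62.9%; -0.57 without it). ZNF292 encodes a large zinc finger protein that is mutated in chronic lymphocytic leukaemia and in a neurodevelopmental disorder. ZNF589 had 8.29, 8.21 and 8.29 with Jak2-10 and 7.92, 8.16 and 8.28 with Jak2-9, against 8.79, 8.69 and 8.98 with Luc and 8.72, 8.76 and 8.56 with GFP. All knockdown arrays were lower (-0.56 ± 0.08, 67.8%). ZNF589, also called SZF1, is a KRAB gene first described in haematopoietic progenitor cells.

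ZNF692 had 7.44, 7.44 and 7.25 with Jak2-10 and 7.64, 7.64 and 7.61 with Jak2-9, against 8.03, 8.05 and 8.41 with Luc and 8.14, 7.99 and 7.64 with GFP. Both Jak2-9 and GFP held an array at 7.64, so the groups touched (-0.54 ± 0.09, 68.7% of control). ZNF692 binds the AICAR response element in glucose production genes. Among the 13 it was the only one lower with Jak2-10 than with Jak2-9, and the only one that did not pass with Jak2-9 alone. ZNF266 had 8.99, 8.87 and 8.62 with Jak2-10 and 8.70, 8.75 and 8.83 with Jak2-9, against 9.48, 9.17 and 9.37 with Luc and 9.42, 9.18 and 9.04 with GFP. The groups did not overlap, although Jak2-10 replicate 1 and GFP replicate 3 lay close (-0.48 ± 0.09, 71.6%). ZNF266 is a KRAB gene on the short arm of chromosome 19. ZNF131 had 8.35, 8.34 and 8.08 with Jak2-10 and 7.84, 8.21 and 8.18 with Jak2-9, against 8.49, 8.57 and 8.46 with Luc and 8.67, 8.66 and 8.54 with GFP. Its knockdown arrays were all lower (-0.40 ± 0.08, 76.0%). ZNF131 has a BTB domain in place of KRAB.

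ZNF665 had 6.15, 6.32 and 6.29 with Jak2-10 and 6.16, 6.09 and 6.27 with Jak2-9, against 6.67, 6.64 and 6.61 with Luc and 6.70, 6.31 and 6.58 with GFP. GFP replicate 2 lay among the Jak2-10 arrays (-0.37 ± 0.08, 77.2% of control). ZNF667 had 4.87, 4.84 and 4.96 with Jak2-10 and 4.69, 4.98 and 4.74 with Jak2-9, against 5.07, 5.30 and 5.07 with Luc and 5.12, 5.26 and 5.15 with GFP. The groups did not overlap, but the signal was dim and the difference small (-0.32 ± 0.07). Both are KRAB genes of chromosome 19. ZNF667 no longer passed in 17 of 24 alternative settings. It fell outside the rule for naming and is named because it was the only one of the 15 left over.

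ZNF236 had 9.43, 9.60 and 9.30 with Jak2-10 and 11.01, 10.20 and 9.35 with Jak2-9, against 7.06, 8.17 and 7.83 with Luc and 7.35, 8.44 and 8.32 with GFP. Every knockdown array was above every control, with Jak2-9 replicate 1 the highest and the first array of each control group the lowest (1.95 ± 0.26; 1.75 without Jak2-9 replicate 1). ZNF236 encodes a protein with many zinc fingers that was described as responding to glucose in kidney mesangial cells. ZNF747 had 7.20, 7.14 and 7.29 with Jak2-10 and 7.61, 7.39 and 7.15 with Jak2-9, against 6.90, 6.79 and 6.84 with Luc and 6.88, 7.13 and 6.90 with GFP. The lowest knockdown array lay just above the highest control (0.39 ± 0.08). ZNF747 is a KRAB gene in a small cluster on chromosome 16.

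**Figure D1:**
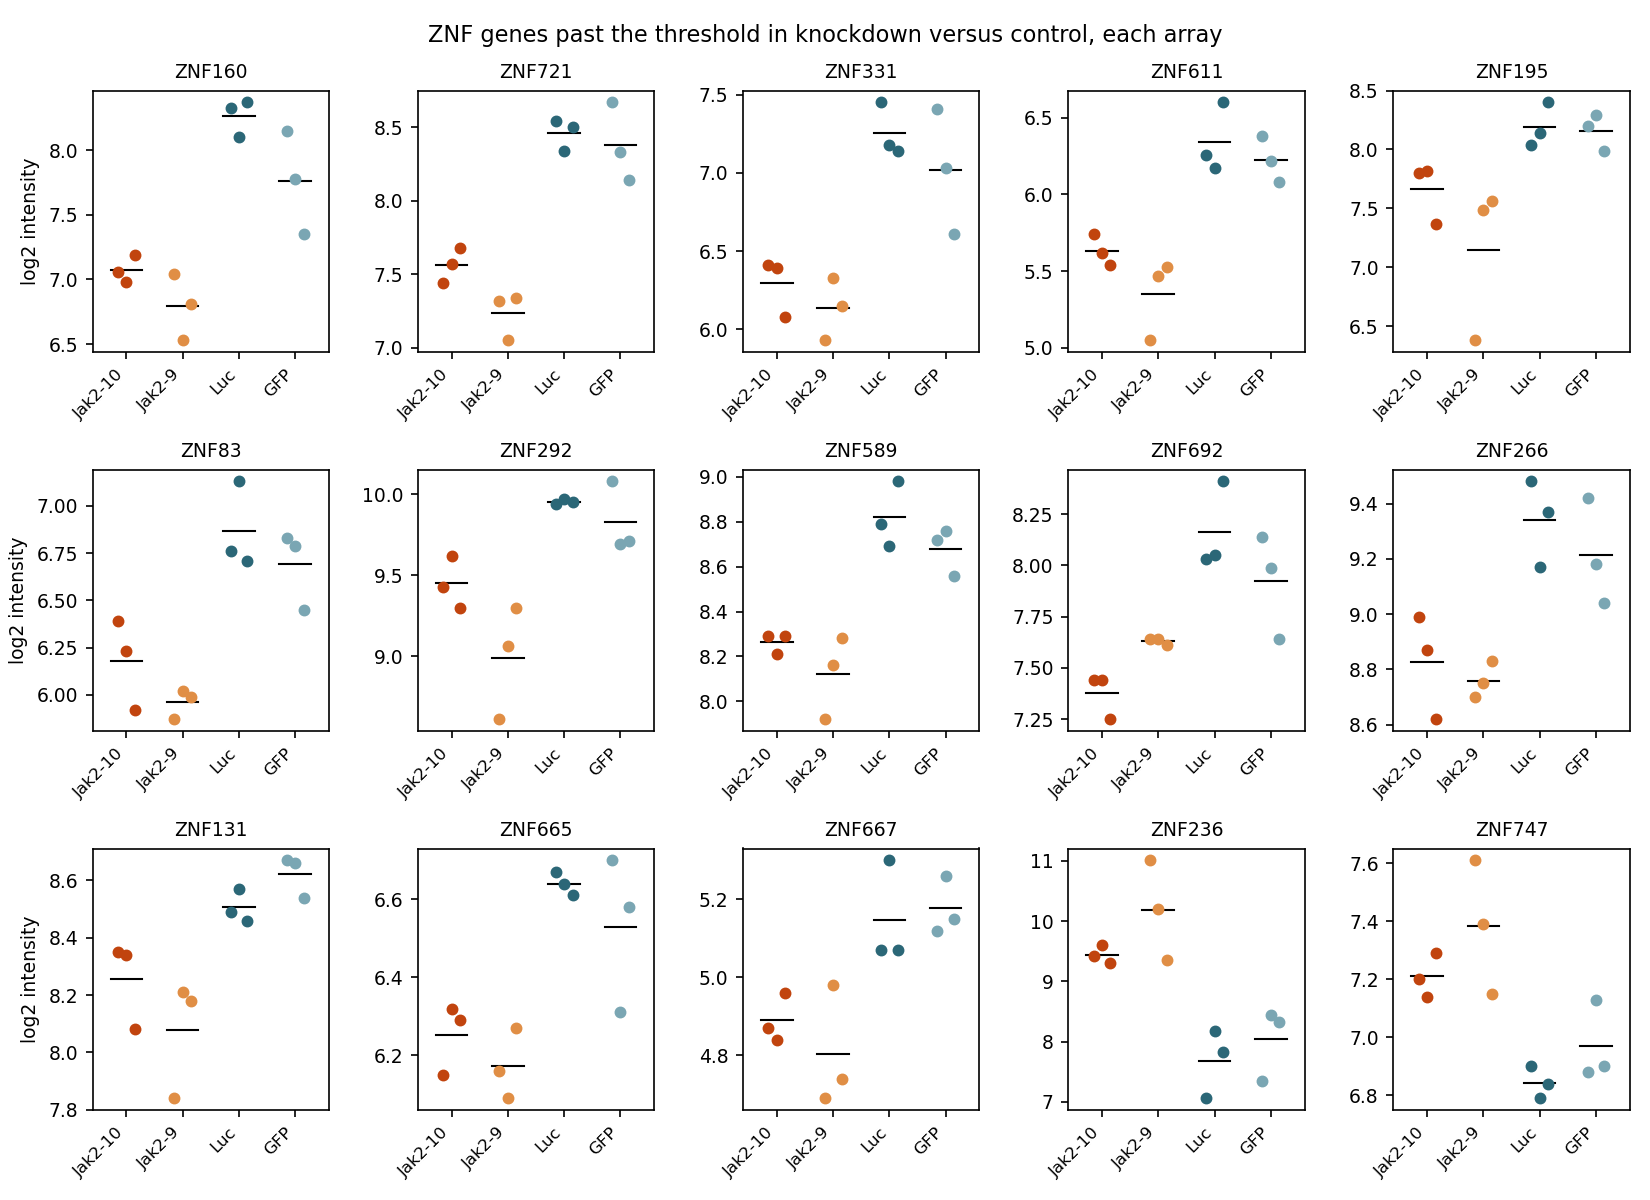
Log2 intensity of the 15 ZNF genes past the threshold between knockdown and control, with 1 point per array, a line at each group's mean and a separate vertical scale for each gene. In 11 of the 13 lower genes and in both higher ones the 6 knockdown arrays do not overlap the 6 control arrays.

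All 6 knockdown arrays lay below all 6 controls in 14 ZNF genes (6.64%), against 1.51% of all genes, and above them in 3 (1.42%), against 1.2% of all genes. Of the 14, 11 are among those described and ZNF430, ZNF573 and ZNF638 did not pass the threshold. ZNF787 was the only non-overlapping higher gene that did not pass. These 4 are named after their values were seen, except ZNF638, which is also among the brightest members. ZNF430 had 7.08, 7.09 and 7.03 with Jak2-10 and 5.69, 7.27 and 7.26 with Jak2-9, against 7.46, 7.55 and 7.42 with Luc and 7.57, 7.67 and 7.50 with GFP. ZNF573 had 7.11, 7.03 and 6.48 with Jak2-10 and 6.16, 7.11 and 7.11 with Jak2-9, against 7.75, 7.33 and 7.50 with Luc and 7.38, 7.59 and 7.21 with GFP. In both genes Jak2-9 replicate 1 was the lowest array, and both passed the threshold once it was left out, although their differences were then smaller: -0.36 for ZNF430, against -0.62 with it, and -0.47 for ZNF573, against -0.63 with it. ZNF787 had 7.66, 7.49 and 7.52 with Jak2-10 and 8.15, 7.46 and 7.49 with Jak2-9, against 7.08, 7.44 and 7.32 with Luc and 7.39, 7.45 and 7.19 with GFP. Its Jak2-9 replicate 1 was the highest array of all, and the remaining knockdown arrays lay just above the controls (0.32 with that array and 0.20 without it).

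Nearest to the threshold on the inside was ZNF667, then ZNF195, both given above. The member nearest to it on the outside was ZNF551 (-0.46 ± 0.11), also on chromosome 19. ZNF551 had 5.23, 5.04 and 4.49 with Jak2-10 and 4.58, 4.84 and 4.78 with Jak2-9, against 5.46, 5.25 and 5.44 with Luc and 5.34, 5.08 and 5.17 with GFP. GFP replicate 2 lay below Jak2-10 replicate 1, so its groups overlapped.

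Over all 211 members the median log2 difference was -0.05, with 131 (62.1%) below 0, against a median of 0.04 and 36.5% below 0 over all genes. Most members therefore differed little, and 146 of the 211 lay within 0.2 log2 units of 0. The median difference was -0.04 with Jak2-10 and -0.06 with Jak2-9, against 0.02 and 0.06 over all genes. By array, the median member lay at -0.01, 0.01 and -0.13 with Jak2-10 and at -0.11, -0.04 and -0.08 with Jak2-9, against 0.04, -0.02 and 0.02 with Luc and 0.02, 0.00 and -0.06 with GFP, in log2 units from the control mean. Knockdown and control arrays thus overlapped in this summary. The median of the 13 lower genes, which were chosen for it, lay at -0.46, -0.54 and -0.74 with Jak2-10 and at -0.91, -0.69 and -0.59 with Jak2-9, against 0.04, 0.01 and 0.08 with Luc and 0.11, -0.07 and -0.20 with GFP.

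**Figure D2:**
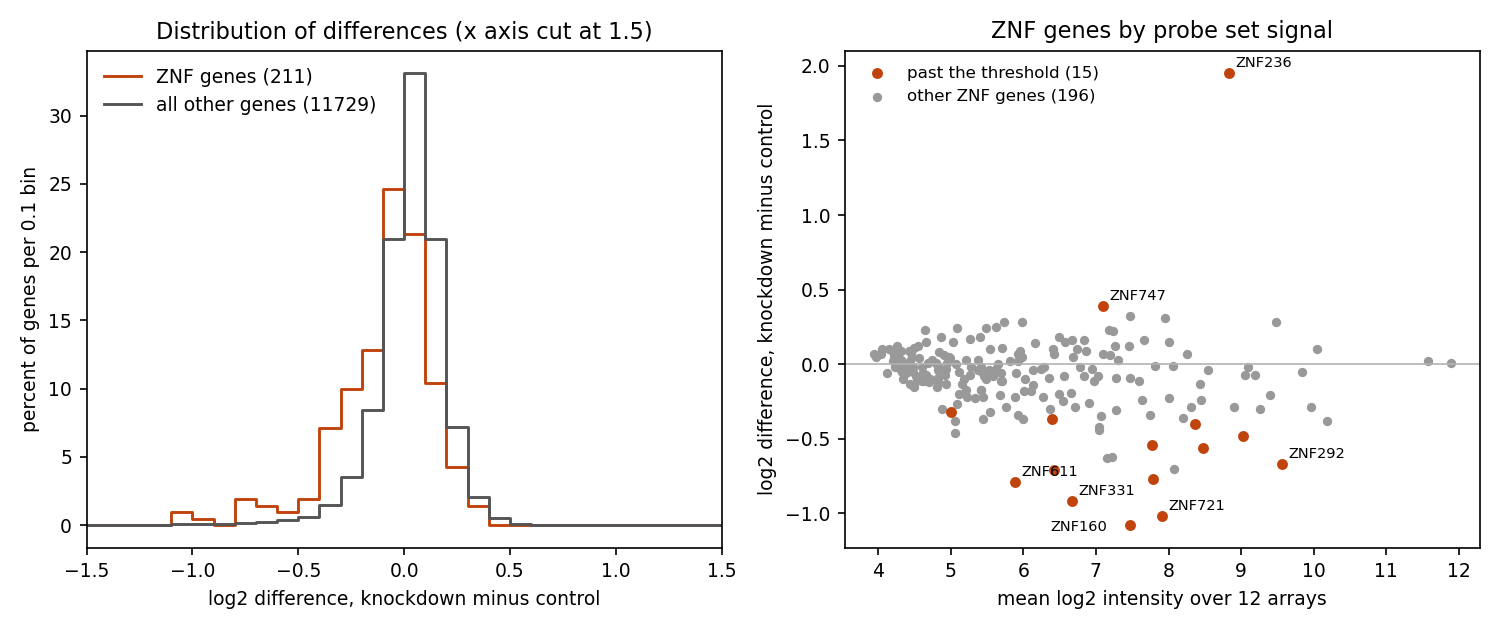
Left, the percent of ZNF genes and of all other genes in each 0.1 log2 bin of the knockdown minus control difference, with ZNF236 beyond the axis. Right, each ZNF gene's difference against its mean log2 intensity, where the 15 past the threshold include none with a mean signal under 5.

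**Figure D3:**
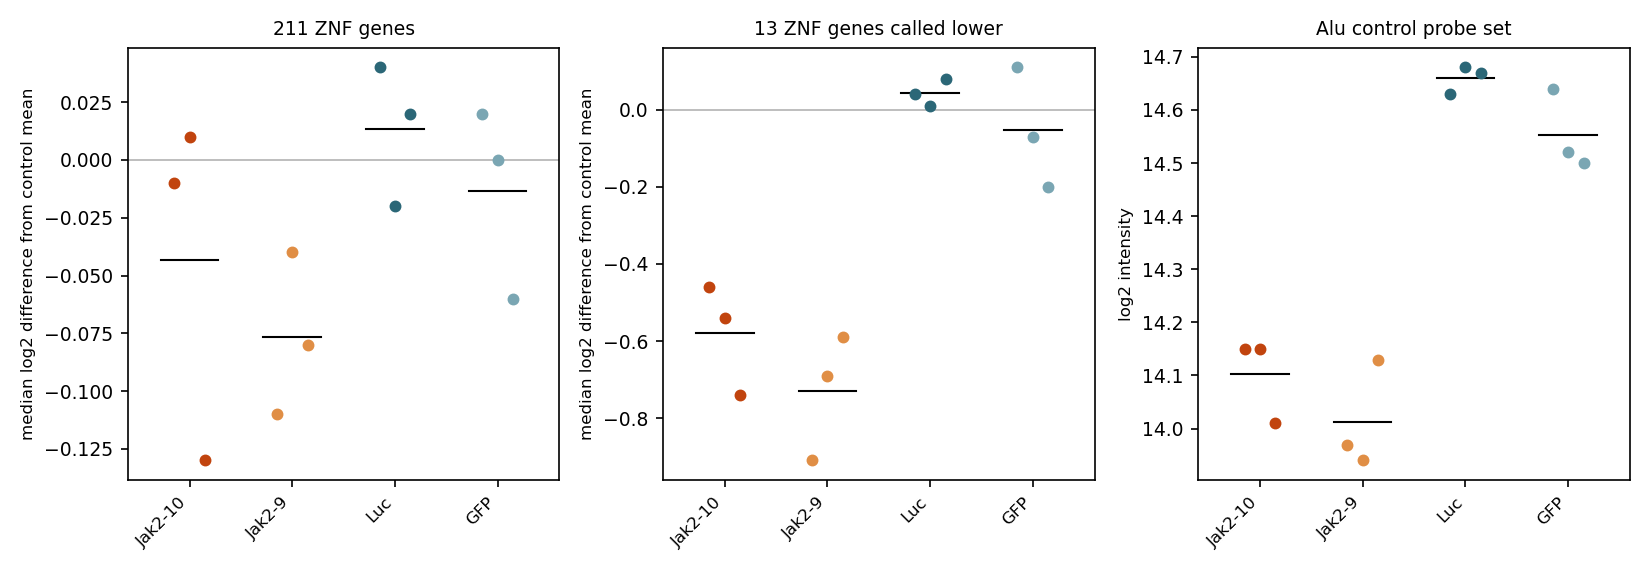
Each point is 1 array and each line a group mean, for the median member, for the median of the 13 lower genes and for the Alu control probe set. The Alu control lies at 13.94 to 14.15 in the knockdown arrays and at 14.50 to 14.68 in the controls, while the median of all 211 members overlaps between them.

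Signal bears on what could pass. The members' mean log2 signal ran from 3.94 to 11.89 with a median of 5.69, against a median of 6.28 over all genes, and these are probe set signals that do not rank transcripts by abundance. Fewer members than genes in all lay at 7 or more (26.5%, against 44.0%), and fewer also lay under 5 (31.8%, against 36.8%). Among the 67 members under 5, where signals may be background, 0 passed, as against 0.296% lower and 0.0455% higher of all genes in that range. In the 88 members between 5 and 7, 5 were past the threshold and lower (5.68%, against 2.88% of all genes in that range). Of the 56 at 7 or more, 8 were lower (14.3%, against 1.66%) and 2 were higher (3.57%, against 0.704%).

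Probe sets whose names end in _x_at contain probes that can match other genes, and such probes are frequent in the ZNF family. Of the 13 lower genes 4 were read through one (ZNF160, ZNF721, ZNF611 and ZNF665), as was ZNF747. The 30 members with such probe sets had a median difference of -0.11, and 80.0% lay below 0. The 123 members with plain probe sets had a median of -0.03, and 56.9% lay below 0. Over all genes with _x_at probe sets the median was 0.05 and 4.0% were past the threshold and lower, against 13.3% of the 30 members. The files cannot say which transcript of a set of related genes gave the signal, so ZNF160, ZNF721, ZNF611 and ZNF665 may share signal with relatives. With all _x_at probe sets left out, 9 of 185 members passed, 8 lower and 1 higher, against 1.5% of all genes.

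A second reading existed for the 54 members with further probe sets. Of those 74 further probe sets, 47 had the same sign of the difference as the brightest one. In 4 of the 74 all 6 knockdown arrays lay below all 6 controls, and in 0 above. The shares over the further probe sets of all genes were not counted, so nothing is read from these counts. The lowest differences among the 74 were in genes whose brightest probe set did not pass, named after their values were seen. A dimmer probe set for ZNF609 differed by -1.89, with 4.88, 4.65 and 4.60 with Jak2-10 and 4.35, 4.63 and 4.69 with Jak2-9, against 6.69, 6.93 and 6.95 with Luc and 6.82, 6.19 and 5.55 with GFP, while its brightest differed by 0.06. A dimmer one for ZNF451 differed by -1.38, with 5.47, 5.75 and 5.58 with Jak2-10 and 4.92, 5.43 and 5.03 with Jak2-9, against 7.10, 6.74 and 7.01 with Luc and 7.21, 6.32 and 6.07 with GFP, while its brightest differed by -0.29. The groups did not overlap in either, and GFP replicate 3 was the lowest control in both. The remaining 2 of the 4 were for ZNF589. Among the 15 genes past the threshold 4 had more than 1 probe set. All 3 for ZNF589 had the knockdown arrays below the controls, with differences of -0.56, -0.65 and -0.49. For ZNF292 the other probe set differed by -0.36 and for ZNF131 by -0.20, and in both its arrays overlapped. The probe sets for ZNF236 did not move together: the brightest differed by 1.95, while the others differed by -0.12 and 0.02. The higher signal of ZNF236 thus rests on 1 of its 3 probe sets.

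**Figure D4:**
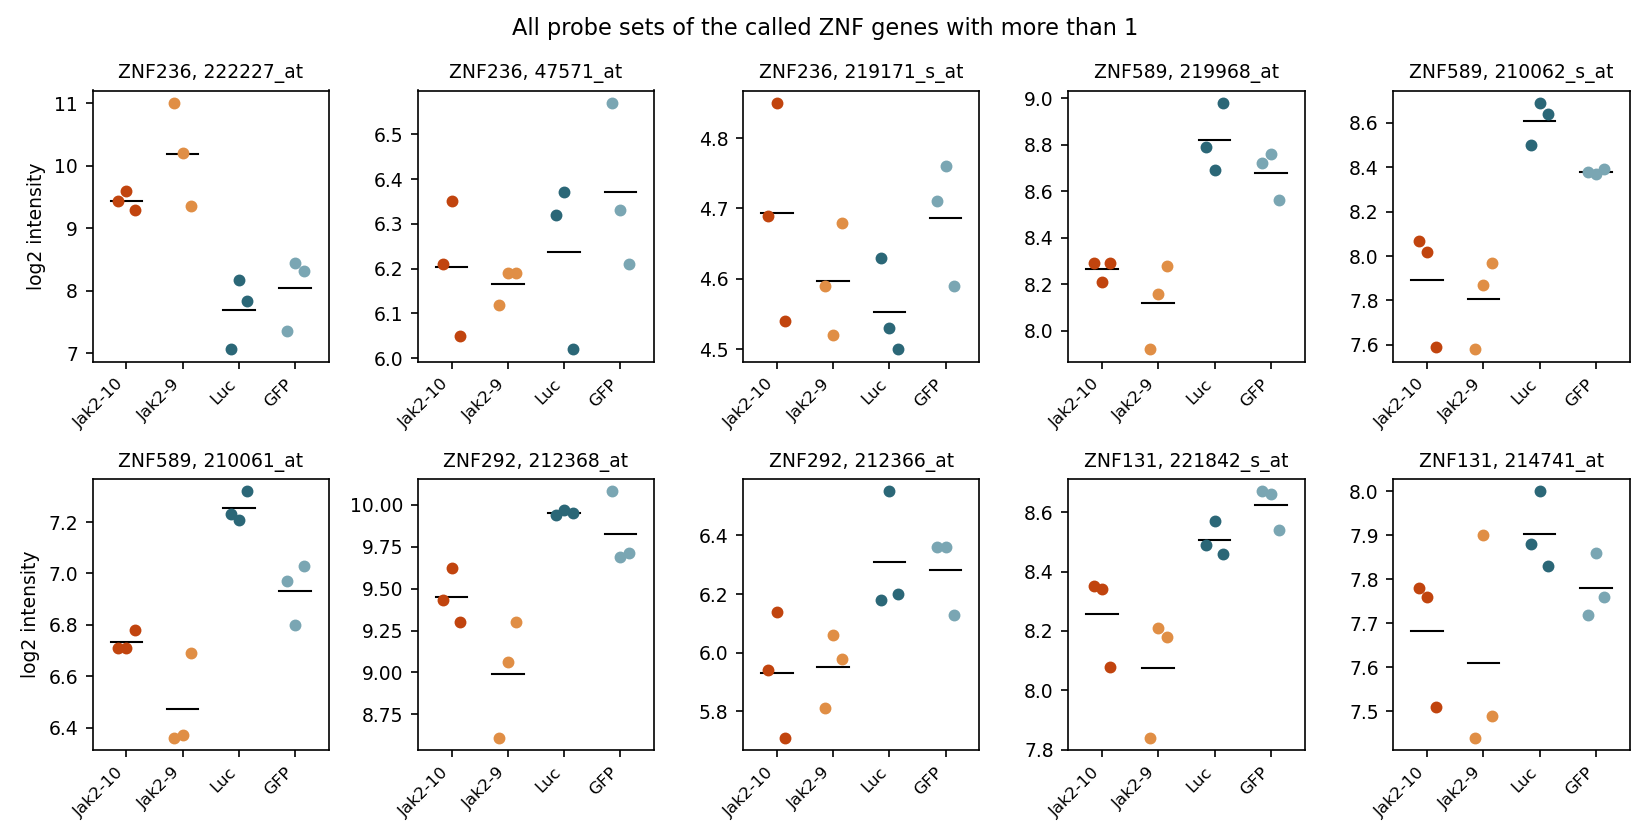
Log2 intensity of every probe set of the 4 ZNF genes past the threshold that have more than 1, with 1 point per array and a line at each group's mean. All 3 ZNF589 probe sets separate knockdown from control arrays, whereas for ZNF236 the brightest alone does so.

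Along chromosome 19, 96 ZNF genes were measured, against 18 on chromosome 16 and 10 or fewer on every other chromosome. Of the 13 lower genes 7 were on chromosome 19, or 7.29% of the 96, against 5.22% of members elsewhere and 1.49% of all genes of chromosome 19. The 96 had a median difference of -0.06 with 69.8% below 0, and the 708 other genes of that chromosome had a median of 0.10 with 18.9% below 0. The 115 members elsewhere had a median of -0.02 with 55.7% below 0. In the GRCh38.p14 gene order, ZNF83, ZNF611, ZNF468, ZNF816, ZNF160, ZNF415, ZNF665 and ZNF331 follow each other among the measured members, and 5 of these 8 were past the threshold and lower. ZNF468 (-0.02), ZNF816 (-0.13) and ZNF415 (0.05) lie among them and did not pass. Of 48 pairs of members with no other protein-coding gene between them, 0 had both members past the threshold and 9 had exactly 1. How many pairs to expect with so few members past the threshold was not computed, so nothing is read from the 0. ZNF721 (-1.02) lay beside ZNF141 (0.04), and ZNF160 (-1.08) beside ZNF415. ZNF236 (1.95) lay beside ZNF516 (0.00). ZNF747 (0.39) lay between ZNF768 (0.10) and ZNF764 (0.18).

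**Figure D5:**
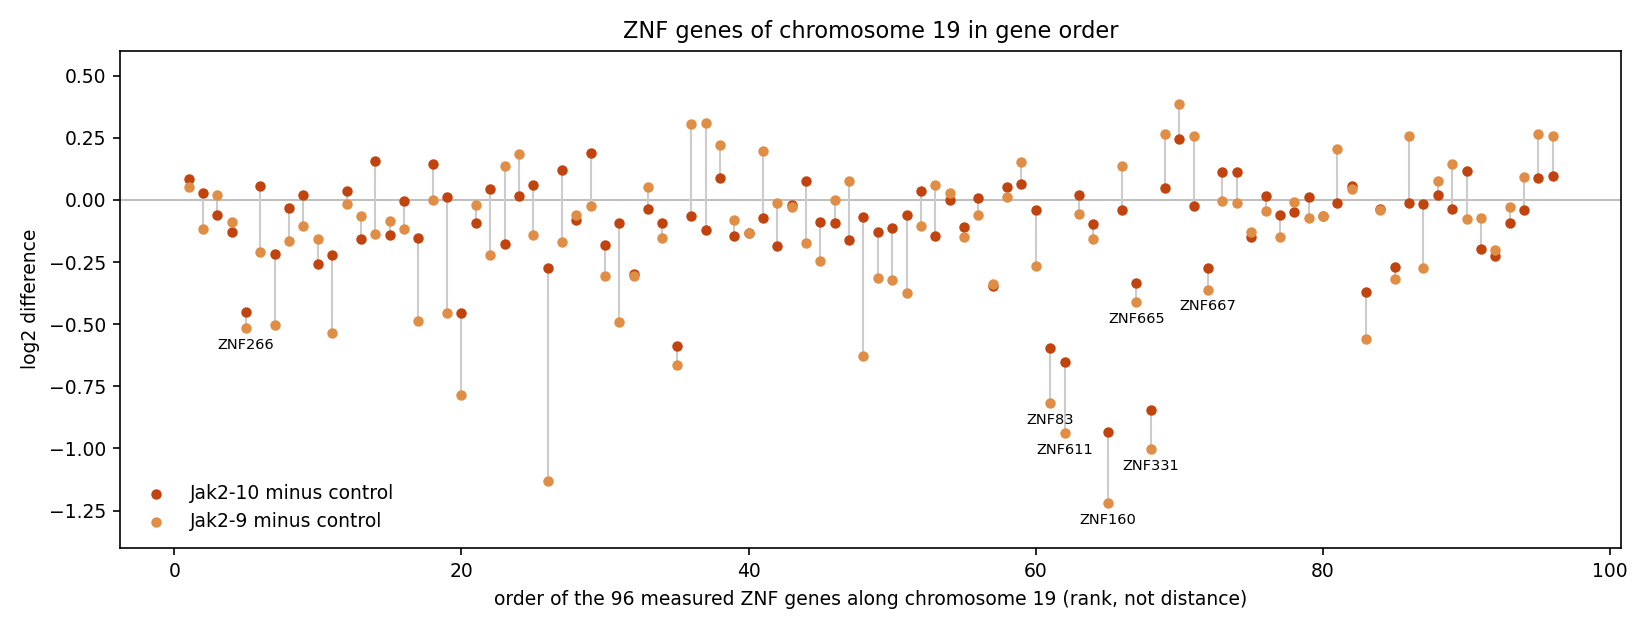
Log2 difference from control of the 96 ZNF genes of chromosome 19 in gene order, with 1 point for each JAK2 hairpin and a grey line joining them. Genes past the threshold are named, and 5 of the 7 lie at ranks 61 to 68, interleaved with genes near 0.

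With each hairpin set against the same 6 controls, 21 ZNF genes passed with Jak2-9 (3.07% of all genes did) and 8 with Jak2-10 (0.687% of all genes). With Jak2-9, 18 were lower (8.53%, against 1.47% of all genes) and 3 were higher (1.42%, against 1.6%). With Jak2-10, 7 were lower (3.32%, against 0.645%) and 1 was higher (0.474%, against 0.0419%). Lower with both hairpins were 6 genes (2.84%, against 0.586%): ZNF160, ZNF721, ZNF331, ZNF611, ZNF83 and ZNF589. Higher with both was 1 gene (0.474%, against 0.0251%), ZNF236, with differences of 1.58 for Jak2-10 and 2.33 for Jak2-9. Without Jak2-9 replicate 1 the Jak2-9 count was 10, all of them among the 21, and the knockdown count was 18, which held all 15. With a Luc array dropped (replicate 1, 2 or 3) the Jak2-9 count was 12, 13 or 11, with GFP replicate 1 dropped it was 10, and with Jak2-9 replicate 3 dropped it was 42. The Jak2-10 count was 1 without any of its own arrays, 13 without Jak2-9 replicate 1, 5 without Jak2-9 replicate 2, 3 and 4 without Luc replicates 1 and 3, and 4 and 2 without GFP replicates 1 and 2. Passing with Jak2-9 but not in the comparison of all 6 knockdown arrays were 7 genes: ZNF268 (-0.60), ZNF551 (-0.56), ZNF562 (-0.50), ZNF93 (-0.49), ZNF85 (-0.45) and ZNF180 (-0.37), all lower, and ZNF593 (0.49), which was higher. Without Jak2-9 replicate 1 only 1 of these 7, ZNF268, still passed with Jak2-9.

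Whether the JAK2 hairpins differed from each other is a test that the choice of the family did not use. For Jak2-10 minus Jak2-9, 0 of the 211 members and 0 of all genes passed an adjusted p of 0.05 (limma). At an unadjusted p under 0.05, 17 members were higher with Jak2-10 (8.06%, against 2.5% of all genes) and 8 were lower (3.79%, against 7.33%). Without Jak2-9 replicate 1 these counts were 8 higher (3.79%, against 1.83% of all genes) and 9 lower (4.27%, against 2.4%), so the greater number of higher members rests on that array. The lowest p-values belonged to ZNF268 and ZNF85, both KRAB genes. ZNF268 had 6.51, 6.62 and 6.43 with Jak2-10 and 5.93, 5.89 and 5.95 with Jak2-9, against 6.76, 6.26 and 6.57 with Luc and 6.68, 6.58 and 6.28 with GFP. The Jak2-9 arrays lay below all others, while the Jak2-10 arrays overlapped the controls. The difference between hairpins was 0.60 ± 0.13 SE (95% interval 0.32 to 0.88; limma, adjusted p = 0.499). ZNF85 had 6.36, 6.37 and 6.45 with Jak2-10 and 5.77, 5.91 and 6.10 with Jak2-9, against 6.52, 6.21 and 6.42 with Luc and 6.50, 6.24 and 6.39 with GFP. Its Jak2-9 arrays were also the lowest, and the difference was 0.47 ± 0.11 SE (0.22 to 0.71; limma, adjusted p = 0.499). For ZNF236 the interval of the hairpin difference ran from -1.54 to 0.05 around -0.74, which includes 0. Without Jak2-9 replicate 1 the hairpin differences were 0.60 for ZNF268, 0.39 for ZNF85 and -0.33 for ZNF236 (limma, adjusted p = 0.931 for each). Of the 13 lower genes 12 were lower with Jak2-9 than with Jak2-10, also without Jak2-9 replicate 1. That share was not counted over all genes. With all arrays, the median Jak2-10 minus Jak2-9 difference was 0.03 over the members and -0.04 over all genes. JAK2 itself averaged 9.96 with Jak2-10 and 9.78 with Jak2-9. That lower mean rests on Jak2-9 replicate 1, at 9.37. Jak2-9 replicates 2 and 3, at 9.89 and 10.08, lay within or above the Jak2-10 range of 9.78 to 10.06.

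The controls were compared in the same model. For Luc minus GFP, 0 members and 0 of all genes passed an adjusted p of 0.05 (limma). At an unadjusted p under 0.05, 8 members were higher with Luc (3.79%, against 1.01% of all genes) and 0 were lower (against 0.905%). For ZNF160, whose arrays are given above, the Luc minus GFP difference was 0.51 ± 0.18 SE (95% interval 0.14 to 0.89; limma, adjusted p = 1.0). ZNF221, a dim KRAB gene, differed by 0.30 ± 0.10 SE (0.08 to 0.51; limma, adjusted p = 1.0). The other 6 were ZNF225, ZNF248, ZNF253, ZNF273, ZNF440 and ZNF613, named after their values were seen. Of the 13 lower genes, which were chosen by their knockdown difference, 2 had a lower mean in Luc than in GFP. That share was not counted over all genes. The median Luc minus GFP difference was 0.01 over the members and -0.01 over all genes.

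Comparisons that share no array were set side by side as a description. Across the 211 members, the Jak2-10 minus Luc difference and the Jak2-9 minus GFP difference had a Pearson r of 0.69 and a Spearman rho of 0.45, against 0.5 and 0.32 across all genes. With the controls exchanged, the values were 0.73 and 0.47 for the members and 0.51 and 0.33 for all genes. Members lower in both comparisons were 86 (40.8%, against 21.0% of all genes) in the first pairing and 92 (43.6%, against 21.6%) in the second. The genes are not independent replicates, and relatives can share signal.

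By role, a short list of members known as KRAB repressors from the literature had 16 of 19 measured. It leaves out other KRAB genes described above, among them ZNF160 and ZNF331, which were lower, and ZNF747, which was higher. Of the 16, 3 were past the threshold and lower (ZNF195, ZNF589 and ZNF721), 0 were higher, 13 lay below 0 and the median was -0.21. Over all genes 1.39% were lower past the threshold, 36.5% lay below 0 and the median was 0.04. The list was written with earlier results of these arrays known, so its count is not independent evidence. ZNF10, or KOX1, whose KRAB domain is widely used as a repressor, differed by -0.23 ± 0.09. ZNF93, which represses LINE-1 elements, differed by -0.32 ± 0.09 and passed with Jak2-9 only. Without Jak2-9 replicate 1 it did not pass with Jak2-9 either (-0.37). It was read through an _x_at probe set, and its other probe set differed by 0.01. ZNF91, which represses SVA elements, is named after its values were seen. ZNF91 had 8.19, 8.14 and 8.10 with Jak2-10 and 5.95, 7.71 and 8.21 with Jak2-9, against 8.31, 8.44 and 8.55 with Luc and 8.60, 8.13 and 8.50 with GFP. Jak2-9 replicate 1 lay far below every other array, Jak2-9 replicate 2 was the next lowest, and Jak2-9 replicate 3 lay among the other groups (-0.70 with replicate 1 and -0.37 without it).

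Members with broad transcription or chromatin roles had 16 of 19 measured, and 0 passed in either direction, with a median of -0.08. Over all genes 1.83% passed and the median was 0.04. In a list this short, 0 cannot be told apart from that share. ZNF638, which takes the HUSH silencing complex to unintegrated DNA, had the lowest difference of the 16. ZNF638 had 10.24, 10.24 and 9.97 with Jak2-10 and 9.31, 10.00 and 10.24 with Jak2-9, against 10.30, 10.42 and 10.39 with Luc and 10.49, 10.34 and 10.37 with GFP. All its knockdown arrays lay below the controls (-0.38 ± 0.13), with Jak2-9 replicate 1 the lowest (-0.25 without it). Both probe sets of ZNF638 are _x_at ones, and in the dimmer one, which differed by -0.34, the groups overlapped. Members with roles in RNA, ribosomes or the spindle had 5 of 9 measured. Of the 5, 0 passed, against the same 1.83% of all genes, and the median was 0.02. ZNF593, whose yeast counterpart is a factor of the large ribosomal subunit precursor, was higher past the threshold with Jak2-9 (0.49), but did not pass without replicate 1 of that group (0.33). ZNF593 had 9.53, 9.44 and 9.26 with Jak2-10 and 10.15, 9.58 and 9.76 with Jak2-9, against 9.44, 9.35 and 9.39 with Luc and 9.30, 9.37 and 9.16 with GFP. Jak2-9 arrays were the highest and Jak2-10 arrays overlapped the controls.

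The corepressor that KRAB proteins use did not pass. Of 34 TRIM28 corepressor and heterochromatin genes 28 were measured and 0 passed in either direction, with a median difference of -0.03. Over all genes 1.83% passed and the median was 0.04. In a list this short, 0 cannot be told apart from that share. TRIM28 differed by 0.16 (limma, adjusted p = 0.44) and SETDB1, the histone methyltransferase it brings, by -0.03. The lowest p-values were those of MTA2, a subunit of the NuRD complex (0.43 ± 0.11 SE, adjusted p = 0.0679), and MPHOSPH8, a subunit of HUSH (-0.41 ± 0.14 SE, adjusted p = 0.178). Among 63 genes of related zinc finger families (ZNF symbols with letters after the digits, ZFP, ZBTB, ZSCAN and ZKSCAN), 2 were lower, 0 were higher and the median was -0.01. The lower ones were 3.17% of the 63, against 1.39% of all genes, and 0.436% of all genes were higher. Below 0 lay 50.8%, against 36.5% of all genes. Both lower ones were BTB zinc finger genes, ZBTB44 (-1.18 ± 0.15 SE, adjusted p = 0.000491) and ZBTB40 (-0.32 ± 0.07 SE, adjusted p = 0.0397).

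The 8 members with the highest signal were ZNF207, ZNF706, ZNF638, ZNF410, ZNF146, ZNF22, ZNF292 and ZNF593, from 11.89 down to 9.48. Apart from ZNF292 none of them passed between knockdown and control. ZNF207, a spindle protein that binds BUB3, differed by 0.01 ± 0.09, and ZNF706, a small protein with a single finger, by 0.02 ± 0.07. ZNF410, an activator of CHD4, differed by 0.10 ± 0.08, and ZNF22 by -0.05 ± 0.07. ZNF146, a protein made almost wholly of zinc fingers, differed by -0.29 ± 0.11. ZNF146 had 10.03, 10.12 and 9.88 with Jak2-10 and 9.18, 9.71 and 9.95 with Jak2-9, against 10.10, 10.06 and 10.03 with Luc and 10.10, 10.22 and 10.11 with GFP. Jak2-9 replicate 1 was its lowest array (-0.18 without it), and the Jak2-10 arrays overlapped the controls.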

How the data were processed

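Expression was measured in HEL cells on 12 one-colour Affymetrix arrays, with 20 ng of total RNA per array put through linear NuGEN amplification and biotin labelling, per the labels. The authors deposited 1 table of linear intensity values per probe set, made by RMA, as the submitters' processing notes name it. Its version and any genome build are not given in the sources used here. The method equalises signal distributions across arrays, and fold changes of dim probe sets come out too small. Values ran from 11.2 to 36233.5, and log2 was taken with no pseudocount. Precision is limited by how many arrays there are.

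Of 22930 probe sets, 524 controls were left out. Genes were named by the platform annotation, and all 211 members matched RefSeq (GRCh38.p14) by Entrez identifier. Each of 11940 genes was read through its brightest probe set. One linear model covered all 4 groups (lmFit and eBayes of limma 3.58.1, run in R 4.3.3), with Benjamini-Hochberg adjustment over all genes, and was tested on simulated data. Descriptions used Python 3.11.15. Promoters were aligned end to end for identity.

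Members and lists were chosen with earlier results of these data known. Named were JAK2; members past 0.05 between knockdown and control, up to 12 in each direction; the lowest p-values of the hairpin and control contrasts; the 8 brightest members; list members past a threshold; and neighbouring members of all these. Alternatives covered array weights, a replicate block, other probe set rules, filters, pseudocounts, single controls and each array left out. Protein sequences were not used here.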

Additional observations from a re-analysis of the deposited data

How the results depend on the processing

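Between knockdown and control 15 members passed, against 1.83% of all genes. The count was 27 with array weights (25 lower, 2 higher), against 4.52% of all genes. With GFP as the only control it was 7 (6 lower, 1 higher), against 0.637%. Without _x_at probe sets, an alternative chosen after seeing the data, it was 9 of 185 (8 lower, 1 higher), against 1.5%. Leaving out 1 array gave 10 to 21, against 1.1% to 2.95% of all genes. For Jak2-9 the 21 became 12 with only the arrays compared in the fit and 13 without _x_at probe sets, and 10 to 42 with 1 array left out: 10 without GFP replicate 1 or Jak2-9 replicate 1, 11 to 13 without a Luc array, and 42 without Jak2-9 replicate 3. For Jak2-10 the 8 became 4 with 32 added to the intensity, 4 without _x_at probe sets, and 1 to 13 with 1 array left out: 1 without any Jak2-10 array and 13 without Jak2-9 replicate 1. Samples with the same replicate number had deviations with correlations of -0.118 to 0.181, over 0.1 in 5 of 18 pairs. Pairs with different numbers were not computed, so whether the number is a pairing cannot be told. With the replicate number as a block the counts were 15 for knockdown (against 1.86% of all genes) and 5 for Jak2-10 (against 0.394%). For Jak2-9 the count was then 24 (4.56% of all genes, against 3.07% without the block). Jak2-10 minus Jak2-9 and Luc minus GFP stayed at 0 under every alternative run. Over the named members, 541 values kept direction and side of the threshold, 55 no longer passed, 6 newly passed and 13 near 0 changed sign, none of them past the threshold. Those were ZNF221 (0.02 with GFP as the only control), ZNF207 (-0.01 with Luc as the only control, and -0.04 to 0.08 over all fits with 1 array left out), ZNF706 (-0.01 to 0.07 over those fits), ZNF22 (0.00 with its probe sets averaged) and ZNF93 (0.01 without _x_at probe sets). ZNF160, ZNF721, ZNF331, ZNF611, ZNF83, ZNF589 and ZNF236 passed in all that were run for them, while ZNF236 ran from 0.62, with its probe sets averaged, to 2.16. For ZNF160, ZNF721 and ZNF611 the fit without _x_at probe sets could not be run, since each has no other probe set. The same held for ZNF665 and ZNF747. ZNF667 did not pass in 17 alternatives, ZNF195 in 12, ZNF747 in 9, and ZNF131 and ZNF665 in 7 each. The members' median stayed 0.04 to 0.12 below that of all genes. The cause of these changes was not tested.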
